A study of Mus musculus with 10 samples.

Results

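The genes described here are 36 transcripts of the antioxidant response: the transcription factor gene Nfe2l2 (NRF2) and its inhibitor Keap1, the enzymes that make and recycle glutathione and thioredoxin, the peroxide- and superoxide-removing enzymes, and the enzymes that supply NADPH. They were taken by symbol from a table of 23056 genes. Each of the 36 was found, and each passed the filter on low counts that left 13688 genes for testing. The libraries are bulk mouse liver RNA, 6 of genotype WT (wild type) and 4 of genotype IFRD1-KO, here KO. All 10 were taken 12 hours after partial hepatectomy, the removal of the left lateral and median lobes. The Ifrd1 allele, the cells in which it was altered, and the strain, age and sex of the mice are not stated in the labels used here. The labels do not say whether each library comes from a different mouse either. P-values therefore set the genotype difference against the spread between these libraries, which may not be the spread between mice. The design text asks what Ifrd1 does in the regenerating liver. No liver without surgery was analysed here, so every value compares genotypes after surgery.

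NRF2 is a transcription factor that is held in the cytoplasm and sent for degradation by KEAP1. Oxidants and electrophiles modify KEAP1, NRF2 then accumulates without needing more of its own mRNA, and it binds antioxidant response elements together with small MAF proteins. Its known targets make glutathione, reduce thioredoxin, repair oxidised peroxiredoxins and feed the pentose phosphate pathway, whose oxidative steps reduce NADP to NADPH. In liver this system protects hepatocytes from drug metabolites and from the reactive oxygen made by their own metabolism.

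Total counts ran from 12307446 to 17098012 per library. Levels are given in CPM, counts scaled to a common library size by TMM, a method that sets the bulk of genes level between libraries. Ifrd1 itself lay between 40.2 and 81.7 CPM in WT and between 13.0 and 22.6 CPM in KO (edgeR adjusted p = 0.0259, log2 fold change -1.59 ± 0.23 SE). Hepatocyte markers summed to between 42865 and 86524 CPM in WT and between 55303 and 65907 CPM in KO, with none of 6 called. WT replicate 4 had a smaller distance to the KO mean than to that of the 5 remaining WT libraries for 27 of the 36 members (75%, against 69.5% of all genes), although its Ifrd1 level of 49.6 CPM lay within the WT range. It lay apart from the other WT libraries by Dixon's criterion for 1 member, Srxn1. Nothing in the labels sets that library aside, and members whose call differs without it are given both ways.

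Srxn1, which encodes the sulfiredoxin that repairs over-oxidised peroxiredoxins, and Pgd, which encodes the second NADPH-producing enzyme of the pentose phosphate pathway, fell in the KO libraries. They were the 2 members of 36 (5.56%) called lower at a Benjamini-Hochberg adjusted p under 0.05 by edgeR (quasi-likelihood, adjusted over all genes tested). Of all genes, 1.33% were called in either direction and 0.767% were called lower. No member was called higher, against 0.563% of all genes. At an unadjusted p under 0.05, 9 members were lower (25%, Slc7a11 included, against 14.4% of all genes) and 2 were higher (5.56%, against 11.6%). DESeq2 called 7 members lower (19.4%, Slc7a11 included, against 4.55% of all genes it tested) and 1 higher (2.78%, against 2.52%). It was run on 22975 genes, without the filter on low counts that all 36 members passed. Its shares of all genes therefore include low-count genes and are not on the same base as those of the members. The median log2 fold change over the 36 was -0.05, beside -0.02 over all genes, with 21 members below 0 (58.3%, against 51.6%). Nqo1, Gsr, Txnrd1 and Gpx4 had lower means in KO with adjusted p between 0.0654 and 0.0800, and Cat had a higher mean in KO with adjusted p = 0.0594, by edgeR. Gclm, Gss, Hmox1, Txn1, Prdx1, Sod1 and Gpx1 had adjusted p of at least 0.601.

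**Figure D1:**
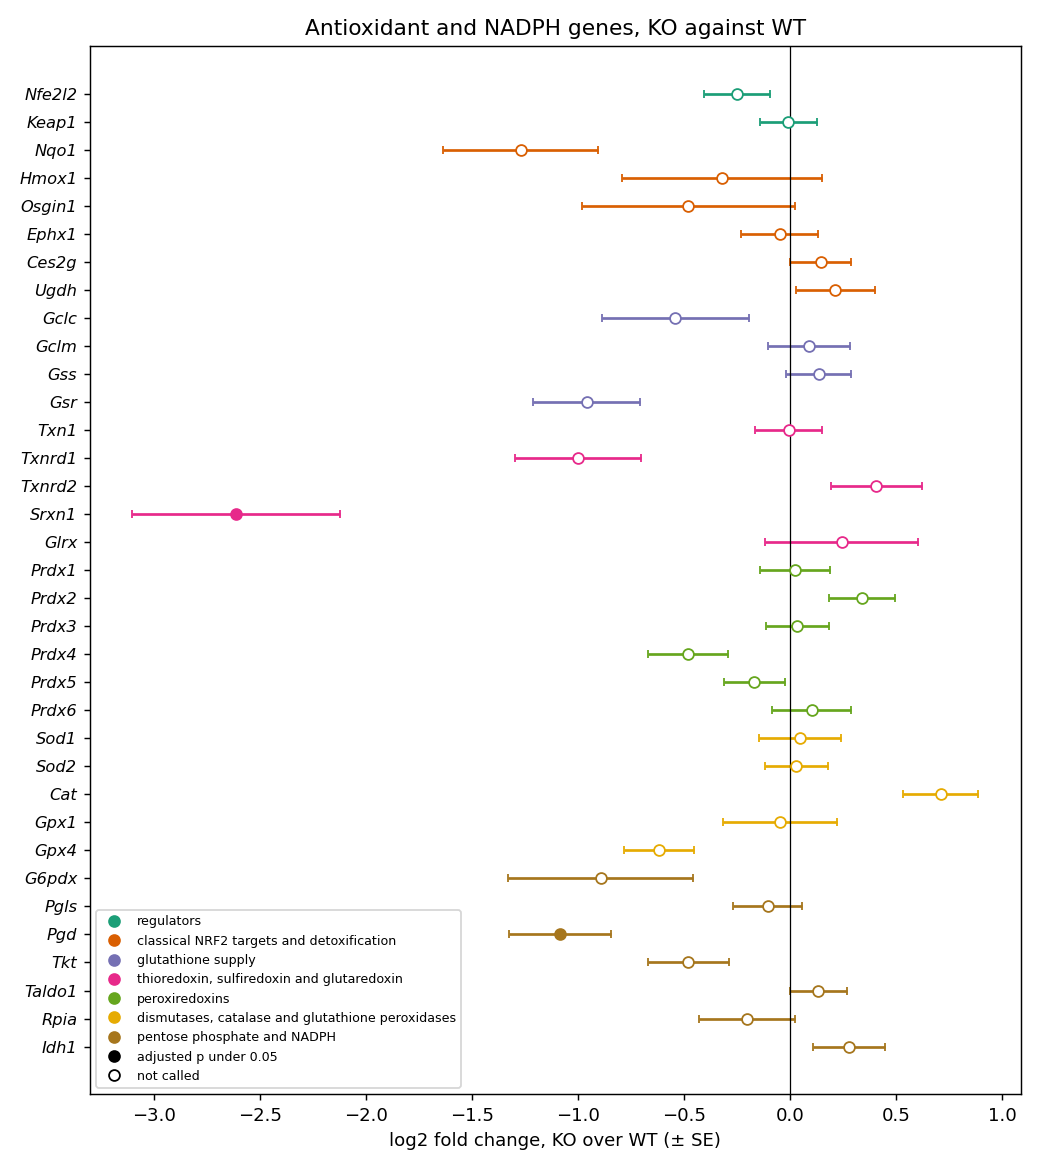
Log2 fold change of KO over WT with its standard error (SE) for 35 of the 36 members, coloured by role; filled points are called. Srxn1 (-2.61) and Pgd (-1.08) are the filled points, and Cat (0.71) lies farthest to the right; Slc7a11 is left out because 3 of 4 KO libraries held 0 of its counts.

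Each library was left out in turn. The fit without WT replicate 4 is described here because the values of that library lay near those of KO, so its calls and p-values were chosen from the values they test and stand as a description only. In that fit 9 members were called lower, 25% of the 36 (Slc7a11 included) against 10.9% of all genes: Srxn1, Pgd, Gsr, Txnrd1, Nqo1, Slc7a11, Gpx4, Prdx4 and Tkt. The call of Slc7a11 supports nothing, in this share too, because it passed the filter on low counts only through WT libraries. Cat was the 1 member called higher (2.78%, against 10.5%). Leaving out any other library gave 0 members called, in fits that called between 0 and 55 of all genes. For 26 of the 36 members (72.2%) WT replicate 4 was inside the KO range, as it was for 57.0% of all genes tested. It was the lowest WT library for 14 members, which include 8 of those 9. The plot of each library against the KO mean shows these rows.

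**Figure D2:**
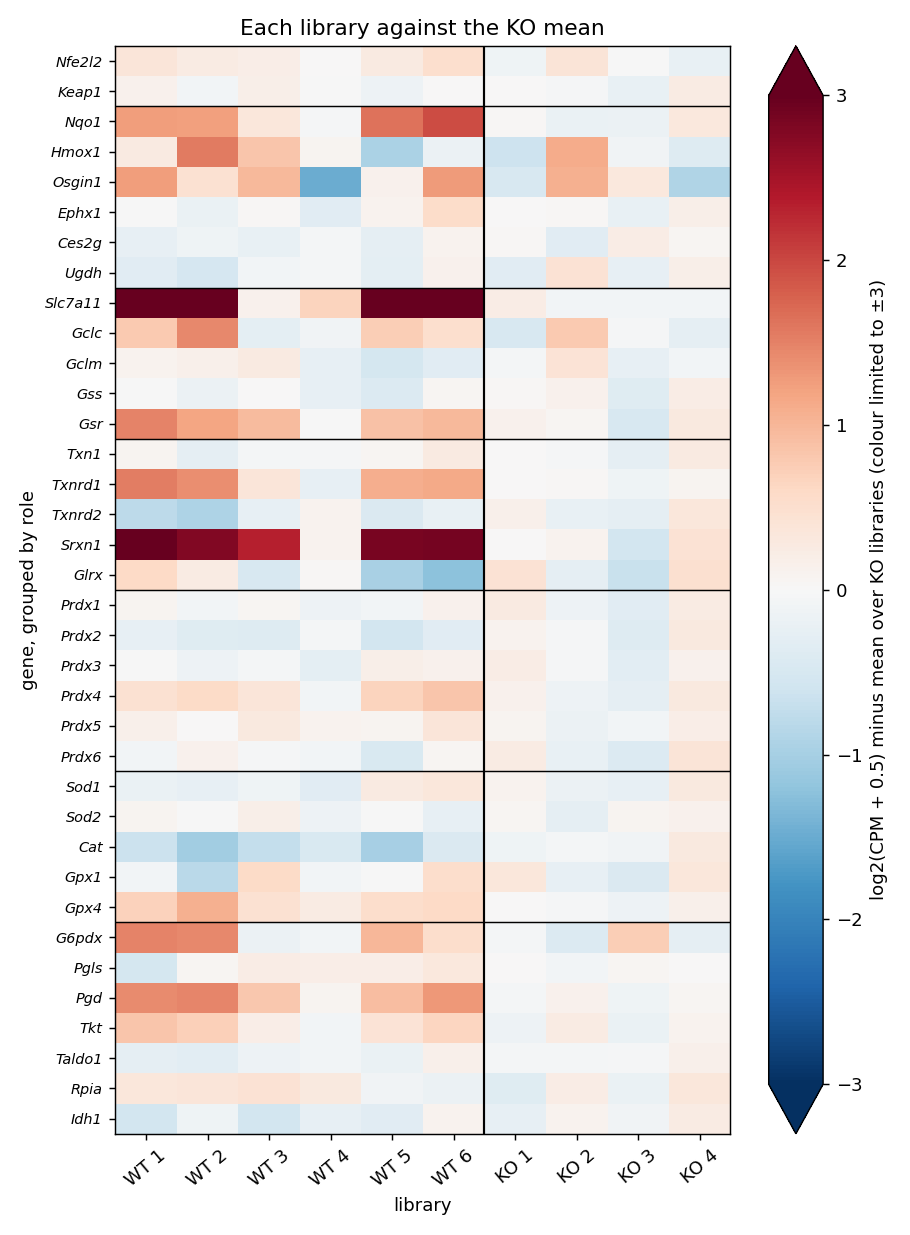
Difference of log2(CPM + 0.5) from the mean of the 4 KO libraries for each member (rows, grouped by role) in each library (columns, replicate numbers as labelled). Red is above and blue below the KO mean; WT replicate 4 is pale for Srxn1, Pgd, Gsr and Nqo1, where WT replicates 1, 2, 5 and 6 are red.

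Compared per kilobase of annotated exon, which allows levels of different genes to be set side by side, Gpx1 had the highest mean level over the 10 libraries (472 CPM per kilobase), followed by Cat (343), Txn1 (256), Prdx1 (225) and Sod1 (166). The place of Srxn1 in this order differed between the genotypes. Its WT mean of 141 CPM per kilobase lay between those of Prdx5 (144) and Osgin1 (126), and its KO mean of 23.1 between those of Gsr (24.1) and Sod2 (22.8). The lowest levels per kilobase were those of Slc7a11 (0.293), Rpia (1.06) and G6pdx (1.22). The exon length counts every annotated exon of a gene, so genes with long rare exons are understated on this scale.

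**Figure D3:**
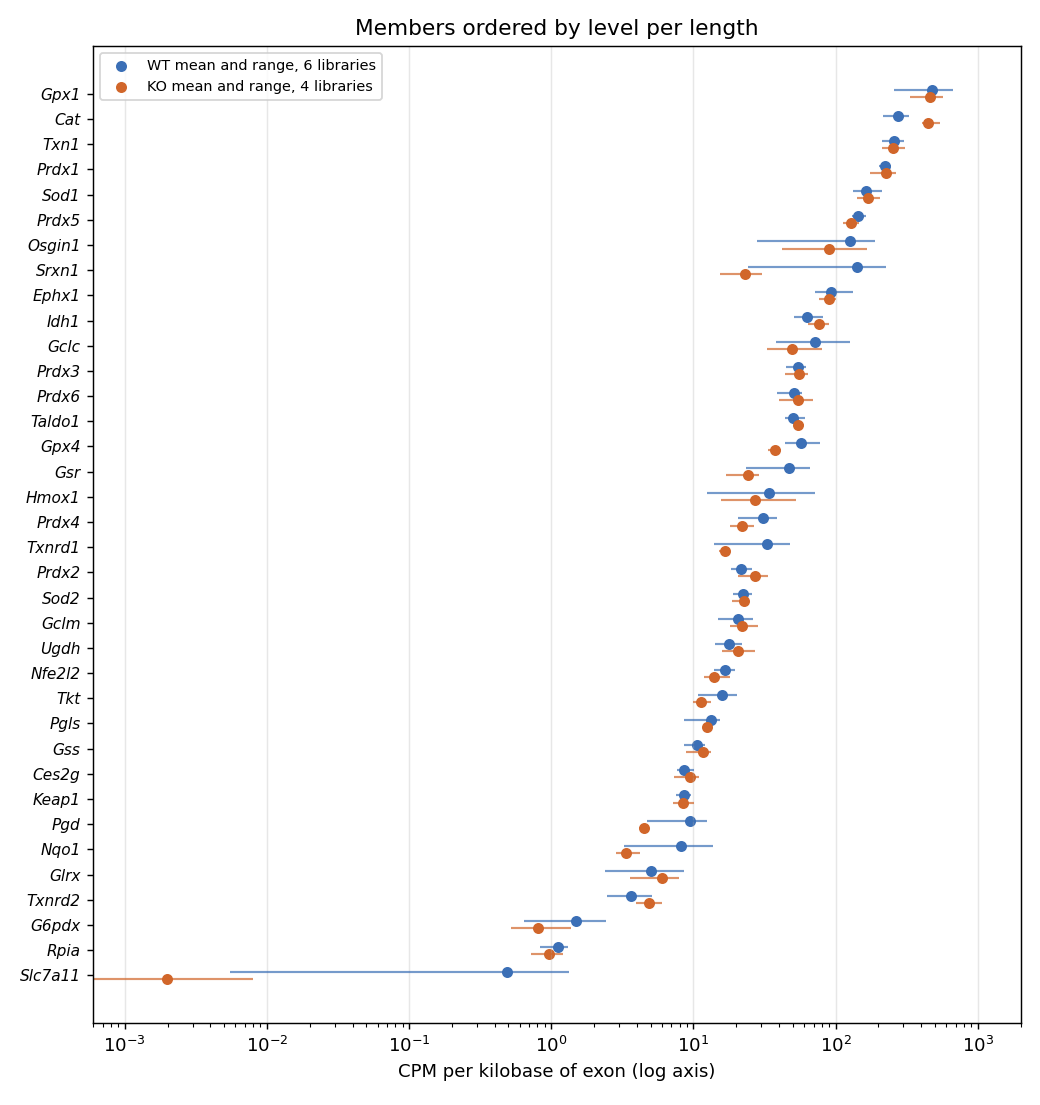
Level per kilobase of exon on a log axis for the 36 members, ordered by the mean over 10 libraries; points are group means and lines the range over libraries (6 WT in blue, 4 KO in orange). The lines separate for Cat and Gpx4 and come within reach of each other through 1 low WT library for Srxn1; the KO line of Slc7a11 starts at 0, off the axis.

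Neither regulator passed the test. Nfe2l2 (chromosome 2, 75675513 to 75704641, minus strand) was at 67.9, 61.9, 60.1, 52.7, 63.2 and 74.6 CPM in WT replicates 1 to 6 and at 47.9, 68.7, 51.7 and 44.8 CPM in KO replicates 1 to 4. The groups overlapped, with KO replicate 2 near the top of the WT range (log2 fold change -0.25 ± 0.16 SE, adjusted p = 0.323 by edgeR). Keap1 (chromosome 9, 21229730 to 21239361, minus strand) was at 43.7, 37.4, 45.0, 39.5, 35.4 and 39.97 CPM in WT replicates 1 to 6 and at 40.1, 38.5, 34.0 and 47.2 CPM in KO replicates 1 to 4. The groups overlapped over nearly their whole range. Its log2 fold change was -0.01 (0.13 SE, adjusted p = 0.979) and took the other sign with upper-quartile scaling (0.03). The activity of NRF2 is set largely by the stability of its protein, which RNA counts do not measure.

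Antioxidant response elements share a core that was searched here as TGACNNNGC and TGAGNNNGC on both strands of the 250 bases before each annotated start. RefSeq promoter windows on GRCm38.p6 were found for 32 of the 36 members, 40 windows in all. Those of Hmox1, Gclc, Gsr and Prdx6 were not matched. A match to either form was present in 11 of the 40 member windows and in 23% of 32851 windows of all genes. TGACNNNGC was in 7 of 40 and in 10.2% of all, and TGAGNNNGC in 4 of 40 and in 14.4% of all. Of the 13 matches in members, 3 overlapped TGANTCA, the letters bound by AP-1, which 5 of 40 member windows and 6.75% of all windows held. Srxn1 is shown at length because it is the member with the largest called difference and holds 2 matches, at 158 to 150 and at 45 to 37 bases before the start. In this stretch of the plus strand, chr2:152105324-152105503 on GRCm38.p6, capitals mark the matches.
Srxn1: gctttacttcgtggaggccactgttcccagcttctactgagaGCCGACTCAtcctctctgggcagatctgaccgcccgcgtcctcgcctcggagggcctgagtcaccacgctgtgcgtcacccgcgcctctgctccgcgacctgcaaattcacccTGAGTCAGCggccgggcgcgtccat

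The same core occurred before members that were called, that came near the threshold, and that did not come near it. The next 6 windows, each with the match in capitals and read 5′ to 3′ in the direction of the gene, are shown to set these side by side. They are chr10:82859099-82859137 (plus strand, at an internal start of the gene), chr3:50443687-50443725 (minus), chrX:74428914-74428952 (minus), chr3:122245408-122245446 (plus), chr4:116685451-116685489 (plus) and chr8:119437033-119437071 (plus), on GRCm38.p6.
Txnrd1: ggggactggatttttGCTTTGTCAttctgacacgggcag
Slc7a11: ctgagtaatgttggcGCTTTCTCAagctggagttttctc
G6pdx: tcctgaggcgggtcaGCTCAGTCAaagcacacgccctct
Gclm: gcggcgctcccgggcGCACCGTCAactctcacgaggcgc
Prdx1: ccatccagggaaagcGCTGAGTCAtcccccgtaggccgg
Osgin1: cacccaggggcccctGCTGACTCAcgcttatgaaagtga

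The match of Osgin1, read on the other strand, has the same letters as the proximal match of Srxn1, TGAGTCAGC. Osgin1 did not pass the test in any fit, as described below, but its libraries varied widely (log2 fold change -0.48, SE 0.50). What the shared letters have to do with the level of either gene was not tested. The windows of Pgd and Nqo1 held no match, which says only that these letters are not within the bases searched. A match is a description of the sequence and not evidence of binding.

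Srxn1 (chromosome 2, 152105516 to 152111376, plus strand) was at 634, 439, 322, 68.1, 456 and 469 CPM in WT replicates 1 to 6. In KO replicates 1 to 4 it was at 64.0, 68.1, 43.1 and 85.1 CPM. The 5 WT libraries other than replicate 4 were all at least 322 CPM, and WT replicate 4 lay inside the KO range, so the groups overlapped through that library alone. The log2 fold change was -2.61, with an SE of 0.49 and an adjusted p of 0.0440 by edgeR, a 6.12-fold lower level, and the two-sided exact permutation test gave p = 0.0143 (adjusted p = 0.197 over all 13688 genes). Without WT replicate 4 it was -2.83 (0.25 SE, adjusted p = 7.37e-05). The call was lost without any other 1 library: adjusted p was 0.0791, 0.0552, 0.0637, 0.0797 and 0.0756 when WT replicate 1, 2, 3, 5 or 6 was left out, and 0.136, 0.147, 0.132 and 0.123 when KO replicate 1, 2, 3 or 4 was, with log2 fold changes from -2.76 to -2.43. It was also lost with no filter on low counts (adjusted p = 0.0531).

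No peroxiredoxin gene passed the test with all libraries. The typical 2-cysteine peroxiredoxins reduce hydrogen peroxide and are the proteins sulfiredoxin repairs, among them cytosolic Prdx1 and Prdx2, mitochondrial Prdx3 and the endoplasmic reticulum form Prdx4. Prdx1 lay between 611 and 741 CPM in WT and between 534 and 813 CPM in KO, with a log2 fold change of 0.03 (SE 0.17). Prdx3 had a mean of 80.2 ± 9.76 CPM (SD, n = 6) in WT and 82.2 ± 12.9 CPM (SD, n = 4) in KO. Prdx2 had a mean of 65.8 ± 7.50 CPM (SD, n = 6) in WT and 83.2 ± 16.2 CPM (SD, n = 4) in KO, and Prdx4 had 65.0 ± 13.3 and 46.5 ± 8.33 CPM. Neither passed (adjusted p = 0.188 and 0.136 by edgeR), but Prdx4 was called lower without WT replicate 4 (log2 fold change -0.57, adjusted p = 0.0237). Prdx5 and Prdx6, which work by other cysteine arrangements, had log2 fold changes of -0.17 and 0.10. The 6 peroxiredoxins together summed to between 1333 and 1597 CPM in WT and between 1151 and 1695 CPM in KO. None of the 6 was called, 2 of them had fold changes below 0, and WT replicate 4 lay in the KO range for all 6.

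The thioredoxin reductases carry electrons from NADPH to thioredoxin. Txnrd1, the cytosolic enzyme (chromosome 10, 82833951 to 82897712, plus strand), was at 339, 308, 152, 99.6, 252 and 261 CPM in WT replicates 1 to 6 and at 118, 121, 108 and 123 CPM in KO replicates 1 to 4. The KO libraries were close together, WT replicate 4 was below all of them, and the other WT libraries were above. The log2 fold change was -1.0, with an SE of 0.30 and an adjusted p of 0.0800, and it was -1.16 (0.21 SE, adjusted p = 0.00365) without WT replicate 4, by edgeR. Txnrd2, the mitochondrial enzyme, had a mean of 16.1 ± 4.26 CPM (SD, n = 6) in WT and 21.3 ± 4.44 CPM (SD, n = 4) in KO (edgeR adjusted p = 0.245, log2 fold change 0.41 ± 0.21 SE). Thioredoxin itself, Txn1, lay between 222 and 320 CPM in WT and between 222 and 323 CPM in KO, with a log2 fold change of -0.01 that took the other sign with upper-quartile scaling (0.03). Glrx, a glutaredoxin that uses glutathione to reduce disulfides, overlapped widely (13.1 to 47.3 CPM in WT and 19.5 to 43.8 CPM in KO).

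Glutathione is built from cysteine, which hepatocytes can import as cystine through the transporter encoded by Slc7a11. Its counts were 281, 52, 1, 5, 157 and 55 in WT replicates 1 to 6 and 2, 0, 0 and 0 in KO replicates 1 to 4. The transcript was thus at 3.93 to 18.6 CPM in WT replicates 1, 2, 5 and 6 and at most 0.340 CPM in the other libraries, WT replicates 3 and 4 included. Over the groups this is 551 against 2 counts, a ratio per total count of 202 (95% exact interval 55.6 to 1670.3, for counting error only, which leaves out the spread between libraries). WT replicate 1 supplied 281 of the 551 counts, and the ratio was 119.7 without it. KO replicate 1 held both KO counts. Without it the KO sum was 0, and against a floor of 3 counts over the group the WT level was at least 95.8-fold higher. Slc7a11 passed the filter on low counts only through 4 WT libraries, so no test of it is given here and its calls in the counts above support nothing.

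The enzymes that join the amino acids of glutathione were not called. Gclc, the catalytic subunit of the rate-limiting ligase, ran from 143 to 473 CPM in WT (median 269) and from 125 to 303 CPM in KO, with a log2 fold change of -0.54 (0.34 SE, adjusted p = 0.338). WT replicate 2 and KO replicate 2 were the highest of their groups. Its modifier subunit Gclm ran from 94.0 to 165 CPM in WT and from 114 to 179 CPM in KO (log2 fold change 0.09, SE 0.19), and glutathione synthetase, Gss, from 51.1 to 71.1 and from 52.5 to 78.7 CPM (0.14, SE 0.15). Gsr, which returns oxidised glutathione to its reduced form with NADPH (chromosome 8, 33652523 to 33698163, plus strand), was at 183, 150, 127, 64.9, 121 and 129 CPM in WT replicates 1 to 6. It was at 71.5, 67.4, 46.9 and 80.2 CPM in KO replicates 1 to 4. Again WT replicate 4 lay among the KO libraries and the other WT libraries above all of them. The log2 fold change was -0.96, with an SE of 0.25 and an adjusted p of 0.0654, and it was called without WT replicate 4 (-1.09 ± 0.19 SE, adjusted p = 0.00281), by edgeR.

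**Figure D4:**
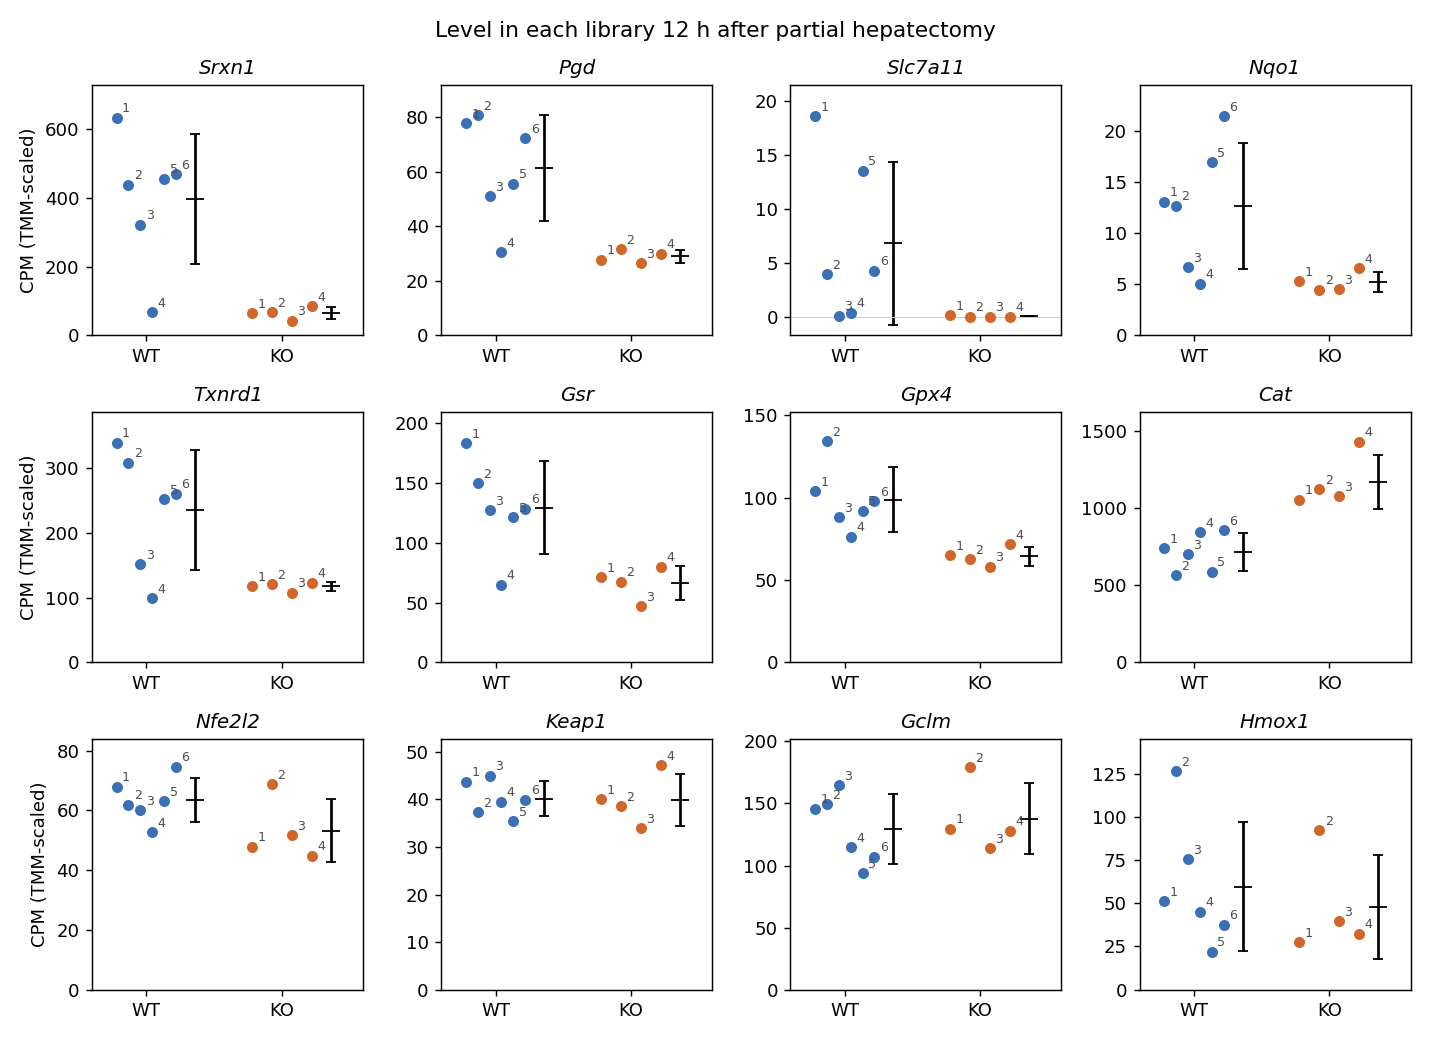
CPM of 12 members in each library (blue WT, orange KO, numbers are the replicate numbers), with group mean and SD as black bars; each axis includes 0. WT replicate 4 sits with the KO libraries for Srxn1, Pgd, Nqo1 and Gsr, the groups are apart for Gpx4 and Cat, and they overlap for Nfe2l2, Keap1, Gclm and Hmox1.

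Among classical NRF2 targets and detoxification enzymes, Nqo1, a quinone reductase much used as a marker of NRF2 activity (chromosome 8, 107388225 to 107403206, minus strand), was at 13.1, 12.7, 6.65, 5.04, 16.9 and 21.4 CPM in WT replicates 1 to 6. It was at 5.30, 4.47, 4.53 and 6.59 CPM in KO replicates 1 to 4. WT replicate 3 lay just above the highest KO library and WT replicate 4 among them. The log2 fold change was -1.27, with an SE of 0.37 and an adjusted p of 0.0750 by edgeR, and -1.43 (0.29 SE, adjusted p = 0.00605) without WT replicate 4. Osgin1, an oxidative stress-induced growth inhibitor, varied widely in both groups, from 75.2 to 510 CPM in WT and from 113 to 444 CPM in KO (log2 fold change -0.48, SE 0.50), and its adjusted p was at least 0.222 in all 18 alternative fits. Ephx1 (microsomal epoxide hydrolase), Ces2g (a carboxylesterase) and Ugdh (which makes UDP-glucuronate for conjugation) had log2 fold changes of -0.05, 0.14 and 0.21 with SE of at most 0.19. Ces2g belongs to a family of close relatives, so its count is uncertain.

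Hmox1, which encodes the inducible enzyme that breaks down haem, was not called (log2 fold change -0.32 ± 0.47 SE, adjusted p = 0.701 by edgeR). Its level was 51.4, 126, 75.6, 45.3, 21.9 and 37.7 CPM in WT replicates 1 to 6 and 27.4, 92.2, 39.6 and 32.3 CPM in KO replicates 1 to 4. Replicate 2 was the highest library in each group. WT replicate 2 also had the highest sum of 7 Kupffer cell and macrophage markers (240 CPM, against 37.0 to 106 CPM in the other WT libraries) and of 5 neutrophil markers (162 CPM, against 6.60 to 34.4 CPM). KO replicate 2 had the highest sum of 5 red cell markers (403 CPM, against 165 to 253 CPM in the other KO libraries), and WT replicate 2 the highest in WT (347 CPM, against 122.5 to 321.5 CPM). In KO the macrophage markers summed to between 28.9 and 60.6 CPM, with 42.2 CPM in replicate 2, and the neutrophil markers to between 3.996 and 12.1 CPM, with replicate 2 the highest. Replicate 2 also had the highest hepatocyte marker sum of each group, 86524 CPM in WT and 65907 CPM in KO. WT replicate 2 was the highest WT library for stellate cell (210 CPM) and lymphocyte markers (35.5 CPM) too. It was not the highest for sinusoidal endothelium or cholangiocyte markers. None of the macrophage or red cell markers was at 0 in any library, and among the neutrophil markers only Ly6g was. The part of any of these cell types in the Hmox1 level was not tested. In bulk tissue, fewer cells of a type and less RNA per cell cannot be told apart.

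Catalase and the selenoenzyme Gpx4 were the 2 members whose groups did not overlap, 1 in each direction (2.78% each, where 3.29% of all genes were without overlap and lower, and 3.61% without overlap and higher). Cat, the peroxisomal enzyme that splits hydrogen peroxide (chromosome 2, 103453849 to 103485160, minus strand), was at 738, 563, 702, 843, 586 and 856 CPM in WT replicates 1 to 6 and at 1054, 1119, 1076 and 1429 CPM in KO replicates 1 to 4. Every KO library was above every WT library, WT replicate 4 included. The log2 fold change between the groups was 0.71 (0.18 SE, adjusted p = 0.0594), and 0.77 (adjusted p = 0.0114) without WT replicate 4, by edgeR. Gpx4, which reduces lipid hydroperoxides in membranes (chromosome 10, 80047166 to 80056439, plus strand), was at 104, 134, 88.0, 76.4, 92.2 and 97.7 CPM in WT replicates 1 to 6 and at 65.2, 62.6, 58.2 and 71.6 CPM in KO replicates 1 to 4. WT replicate 4 was again the lowest WT library but lay above the KO range (log2 fold change -0.62 ± 0.17 SE, adjusted p = 0.0664, and -0.68 with adjusted p = 0.0106 without WT replicate 4). The exact permutation test gave p = 0.00476 for Cat, the smallest the design allows, and p = 0.00952 for Gpx4, each with an adjusted p of 0.197 over all 13688 genes.

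The other peroxide- and superoxide-removing enzymes had means close to each other in the genotypes. Gpx1, the abundant cytosolic glutathione peroxidase, had a mean of 689 ± 225 CPM (SD, n = 6) in WT and 668 ± 179 CPM (SD, n = 4) in KO. The superoxide dismutases, cytosolic Sod1 and mitochondrial Sod2, had log2 fold changes of 0.05 (SE 0.19) and 0.03 (SE 0.15), within the spread of the libraries (524 to 841 CPM and 191 to 257 CPM in WT, and 561 to 821 CPM and 188 to 247 CPM in KO). Some abundant members, such as Txn1, Prdx1 and Gpx4, are known to have processed pseudogenes elsewhere in the genome, and how the authors' counting treated reads shared with them is not stated in the notes used here.

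In the pentose phosphate pathway the values differed by step. Pgd (chromosome 4, 149149991 to 149166771, minus strand) was at 77.8, 80.7, 51.0, 30.4, 55.6 and 72.2 CPM in WT replicates 1 to 6 and at 27.7, 31.5, 26.5 and 29.9 CPM in KO replicates 1 to 4. The KO libraries lay close together, WT replicate 4 lay among them and the other WT libraries lay at or above 51.0 CPM. The log2 fold change was -1.08, with an SE of 0.24 and an adjusted p of 0.0495 by edgeR, a 2.12-fold lower level, with an exact permutation p of 0.0190. Without WT replicate 4 it was -1.22 (0.17 SE, adjusted p = 8.25e-04). The call was lost without any other 1 library (adjusted p of 0.0945, 0.0669, 0.0682, 0.0876 and 0.0777 when WT replicate 1, 2, 3, 5 or 6 was left out, and of 0.148, 0.148, 0.147 and 0.133 when KO replicate 1, 2, 3 or 4 was), and with upper-quartile scaling (0.0557), a filter of 1 CPM in 4 libraries (0.0501) or limma-voom (0.0503).

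G6pdx, the enzyme of the first and committed step, was low and uneven. It was at 7.47, 7.18, 1.99, 2.18, 5.18 and 3.56 CPM in WT replicates 1 to 6 and at 2.21, 1.62, 4.23 and 1.87 CPM in KO replicates 1 to 4 (log2 fold change -0.89 ± 0.44 SE, adjusted p = 0.217). Its window held the motif core while that of Pgd did not. Pgls, the lactonase between them, was at 50.4 ± 9.40 CPM (SD, n = 6) in WT and 46.9 ± 1.93 CPM (SD, n = 4) in KO, with WT replicate 1 alone at 32.1 CPM. Of the non-oxidative enzymes that rearrange the sugar phosphates, Tkt (transketolase) had a mean of 117 ± 26.7 CPM in WT and 83.8 ± 11.9 CPM in KO. It did not pass with all libraries (log2 fold change -0.48, adjusted p = 0.144) and was called without WT replicate 4 (-0.57, adjusted p = 0.0312). Taldo1 (transaldolase) and Rpia (ribose phosphate isomerase) had log2 fold changes of 0.13 and -0.20. Idh1, which makes NADPH in the cytosol from isocitrate, had a mean of 174 ± 31.7 CPM in WT and 211 ± 31.8 CPM in KO (0.28 ± 0.17 SE, adjusted p = 0.319).

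Other genes of the same pathways were taken from 5 lists. Of all genes, 0.767% were called lower, 0.563% were called higher and 51.6% were below 0. The lists were chosen with earlier results of these data known, so their shares are a description only. Of 34 tested NRF2 regulators and further targets, 2 fell (5.88%) and 0 rose, with a median log2 fold change of -0.39 and 25 below 0 (73.5%). The 2 were Mt2, a metallothionein that binds zinc and copper, from 1717 ± 907 to 435 ± 59.4 CPM (576 CPM in WT replicate 4), and Akr1b7, an aldo-keto reductase, from 66.3 ± 71.0 to 0.512 ± 0.220 CPM (1.97 CPM in WT replicate 4). The KO libraries held 32 counts of Akr1b7 in all. Like Slc7a11, it passed the filter on low counts through its WT libraries, so its call supports nothing, in the share of 5.88% too. Of 22 tested glutathione transferases, which attach glutathione to electrophiles, 1 fell (4.55%) and 0 rose (median -0.42). It was Gstt3, from 107 ± 28.8 to 28.0 ± 8.38 CPM (log2 fold change -1.93 ± 0.26 SE, adjusted p = 0.0221 by edgeR), and the lowest WT library, replicate 4 at 72.2 CPM, was above the highest KO library at 38.3 CPM. Of 21 tested genes of glutathione breakdown, transsulfuration and transport, 1 fell and 1 rose (4.76% each). Mat2a, which makes S-adenosylmethionine, fell from 191 ± 55.6 to 77.4 ± 5.97 CPM, and Glul, glutamine synthetase, rose from 285 ± 105 to 622 ± 43.2 CPM (median of the list -0.25).

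Of 25 tested peroxidase, thioredoxin and glutaredoxin genes beyond the members, 1 fell (4%, against 0.767% of all genes) and 0 rose (median 0.02). It was Sesn2, a stress-induced nutrient sensor, from 16.4 ± 8.60 to 3.93 ± 0.93 CPM. Of 13 tested further sources of NADPH, 1 rose (7.69%, against 0.563% of all genes) and 0 fell (median -0.05). It was Nadk2, the mitochondrial kinase that makes NADP from NAD, from 40.3 ± 6.51 to 65.9 ± 5.51 CPM (log2 fold change 0.71 ± 0.14 SE, adjusted p = 0.0440), with WT replicate 4 the highest WT library at 53.3 CPM. WT replicate 4 was the WT library nearest to the KO mean for each of these 7 genes. All 7 were also called without it (adjusted p from 2.52e-04 to 0.00153 by edgeR). This is a description only, because that library was singled out by its nearness to KO. The call of Akr1b7 supports nothing in any fit, because it passed the filter on low counts through its WT libraries. Of the 9 fits that left out another library, 4 called Gstt3, 1 called Mt2 and 1 called Akr1b7, and none called Mat2a, Glul, Sesn2 or Nadk2 (lowest adjusted p = 0.0521). Without WT replicate 4 the lists, in the order given here, had 10, 7, 4, 5 and 2 genes lower (29.4, 31.8, 20, 20 and 15.4%). They had 1, 1, 3, 2 and 1 higher (2.94, 4.55, 15, 8 and 7.69%). Of all genes, 10.9% were lower and 10.5% higher. In this fit 20 genes of glutathione breakdown, transsulfuration and transport were tested. The SDs are over 6 WT and 4 KO libraries.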

How the data were processed

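Raw read counts per gene symbol were used as the authors deposited them, 1 column per library with no pooling (0 columns were left out). STAR, HTSeq and DESeq2 with build mm10 are named, per the submitters' processing notes. Their versions, the annotation and the strand handling are not given in these sources, so overlapping and antisense genes cannot be told apart. Groups and replicate numbers came from the sample titles.

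KO was compared with WT over all 10 libraries with edgeR 4.0.16 (R 4.3.3), TMM scaling, filterByExpr by group, robust quasi-likelihood dispersion and no covariate. P-values were adjusted by Benjamini-Hochberg over 13688 genes and called under 0.05. The SE of a log2 fold change is its size over the square root of F. Single genes were also put through an exact permutation test (two-sided) of log2(CPM + 0.5) over 210 labelings. CPM per kilobase used the union of GENCODE M21 exons on GRCm38, whose coordinates are printed for genes. Every pair of libraries within a group differed beyond sampling noise (reduced chi-square from 23.4 to 185).

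The members and the lists, including the 5 pathway lists, were chosen with earlier results of these data known. All 36 members are reported, with values in every library for called members, the regulators and those nearest the threshold, and called genes of the pathway lists are named. Their alternatives, and the Slc7a11 ratio with each library left out, were chosen after seeing the data. Values per library of Hmox1 and G6pdx were added after they had been seen. On counts simulated for KO against WT over 13421 genes, recovery was 4% at 1.5-fold, 30% at 2-fold, 86% at 4-fold and 96% at 8-fold, and 7 of 115 calls fell on unchanged genes. The simulation gave both groups the same dispersion and set no library apart. In the data the median log2 SD over all genes was 0.387 in WT and 0.225 in KO, so these rates may not hold here. Alternatives were RLE and upper-quartile scaling, 2 other filters, DESeq2 1.42.0, limma-voom (limma 3.58.1), no robust prior, replicate numbers as a block, leaving out each library, and a pseudocount of 2.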

Additional observations from a re-analysis of the deposited data

Results flagged for a closer look

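In 5 of 72 groups of libraries (36 members in 2 genotypes), the highest or lowest library lay apart from the rest by Dixon's criterion on the log2 scale, which chance gives in about 1 of 20 groups. WT replicate 4 was apart for Srxn1, at 68.1 CPM against 322 to 634 CPM in the other WT libraries. WT replicate 5 was apart for Prdx6, at 186 CPM against 241 to 279 CPM, and WT replicate 1 for Pgls, at 32.1 CPM against 49.1 to 58.1 CPM. KO replicate 2 was apart for Sod2, at 188 CPM against 236 to 247 CPM. KO replicate 1 was apart for Slc7a11, at 0.110 CPM, only because the other 3 KO libraries were at 0.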

How the results depend on the processing

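With all 10 libraries 182 genes, 2 members lower and 0 members higher were called. Members called lower numbered 1 with upper-quartile scaling (Srxn1), with no filter (Pgd), with a filter of 1 CPM in 4 libraries (Srxn1) and with limma-voom (Srxn1), and 7 with DESeq2, which called 1 higher. DESeq2 called 1624 genes in all and limma-voom 318. Limma-voom called 231 higher and 87 lower, where edgeR called 77 and 105. Leaving out 1 library gave 2, 55, 10, 2893, 2 and 20 genes for WT replicates 1 to 6 and 0, 0, 0 and 2 for KO replicates 1 to 4 by edgeR, a range of 0 to 2893. Where 0 were called, 2729, 2681 and 2740 genes had an unadjusted p under 0.05. Members then called lower numbered between 0 and 9, and those called higher between 0 and 1, where 9 and 1 came without WT replicate 4 and every other omission gave 0 and 0. The cause was not tested. Slc7a11 was tested in 14 of 18 alternative fits, with log2 fold changes from -9.53 to -5.55. With 2 KO counts in all, these values support nothing.

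The replicate numbers shared by the groups were fitted as a replicate block, which left 1 gene called in all, the member Slc7a11, which passed the filter only through WT libraries. WT replicates 5 and 6 have no KO library of the same number, so under the block the genotype difference rested on the libraries numbered 1 to 4. Srxn1 and Pgd then had adjusted p of 0.151 and 0.145. Same-numbered libraries had correlations of deviations of 0.183, 0.074, -0.027 and -0.010 for numbers 1 to 4, not all of their libraries correlated best with their own number, and nothing says that the numbers pair mice. Under the block the log2 fold change changed sign for Ephx1 (0.127), Gclm (-0.071), Txn1 (0.069), Glrx (-0.098), Sod2 (-0.022), Gpx1 (0.116) and Pgls (0.009).

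Of the 36 members, 23 kept their direction in every alternative fit that tested them, Srxn1, Pgd, Gsr, Txnrd1, Nqo1, Gpx4 and Cat among them. The 23 include Slc7a11, whose direction supports nothing because it passed the filter on low counts only through WT libraries. The other 13 were not called in any. Upper-quartile scaling changed the sign of Keap1 (0.033) and Txn1 (0.034) and moved the median of all genes from -0.02 to 0.03. Leave-one-out fits spanned 0 for Keap1 (-0.092 to 0.066), Hmox1 (-0.852 to 0.042), Ephx1 (-0.111 to 0.077), Gclm (-0.062 to 0.173), Txn1 (-0.101 to 0.080), Prdx1 (-0.061 to 0.134), Prdx3 (-0.041 to 0.135), Prdx6 (-0.030 to 0.226), Sod1 (-0.057 to 0.132), Sod2 (-0.012 to 0.115) and Gpx1 (-0.176 to 0.085), all log2 fold changes. Low depth limits Slc7a11, with 2 KO counts in all.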
